A study of Rattus norvegicus with 9 samples.

Results

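Basement membrane genes were followed in the RNA of 3 groups of rat knee tissue. The set holds 32 genes out of 17602 in the deposited table and was chosen by gene symbol: 10 laminin chains, 6 collagen IV chains, 2 nidogens, and 14 proteoglycans, partners, receptors and enzymes of the basement membrane. All 32 were in the table and were above 0 TPM in at least 3 libraries, which was the filter for testing. TPM is a measure of transcript abundance scaled by transcript length to a total of 1000000 in each library, so levels of different genes can be set side by side.

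All animals were wild-type rats; the study's methods give male Lewis rats 10 to 12 weeks of age. The intact group was synovium around the medial meniscus of knees without surgery. The sham group was the same synovium 1 week after a sham operation. The pMx group was the tissue regrowing 1 week after partial medial meniscectomy (pMx), an operation that removed the front part of the medial meniscus, and the synovium around it was trimmed away. Each group had 3 libraries, which the labels call biological replicates. Whether each library came from a separate animal was not given in the sources used here, and p-values measure only the spread between these libraries. The pMx and sham groups differed both in the operation and in the tissue taken, and these cannot be told apart. RNA integrity as the study lists it was also lowest in the intact group, higher in sham and highest in pMx, without overlap, so it too cannot be told apart from the groups.

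Basement membranes are thin sheets of matrix under epithelia and endothelia and around muscle fibers, adipocytes and Schwann cells. Laminins, which are trimers of an alpha, a beta and a gamma chain, form a sheet on the cell surface, and collagen IV, a trimer of its own chains, forms a second network that nidogens and perlecan join to the laminin. The synovial lining is known to lack a continuous basement membrane, whereas the vessels, fat and nerves below it have one.

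The libraries had 15644 to 16125 genes above 0 TPM, and their read depth is unknown because TPM keeps no read numbers. Intact replicate 3 stood apart. The summed TPM of 10 skeletal muscle markers was 41847 there, against 56.9 and 193 in the other intact libraries, 219 to 2785 in the sham group and 83.6 to 2891 in the pMx group. It was the lowest of its group for 27 of the 32 basement membrane genes (84.4%) and for 60.5% of all genes tested. Counts of called genes without it are given for the comparisons with intact. The intact sums, means and shares include it.

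Between pMx and sham, the genes moved in both directions, and members of the same family often parted. Col4a1, Col4a2, Lama4, Lamb1, Lamc1, both nidogens, perlecan and both multiplexins were higher in the pMx group. Lama2, Lamb2, Lamc3, Col4a3, Col4a5, Col4a6, Npnt, Ntn4 and Tinagl1 were lower. In the limma fit over 16512 genes, 12 basement membrane genes were higher and 9 were lower at an adjusted p below 0.05, and 11 did not pass. Among all genes tested, 17.7% were called higher and 18.9% lower. With an absolute log2 fold change above 1 as well, the study's cutoffs for a differentially expressed gene (DEG), 6 were up and 4 were down, beside 8.21% of all genes in either direction. These DEGs come from the limma fit and are not the study's own list, whose counts differ. The median log2 fold change was -0.02 over the set and -0.01 over all genes tested. Fold changes are on the log2(TPM + 1) scale, which understates the change of low genes.

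**Figure D1:**
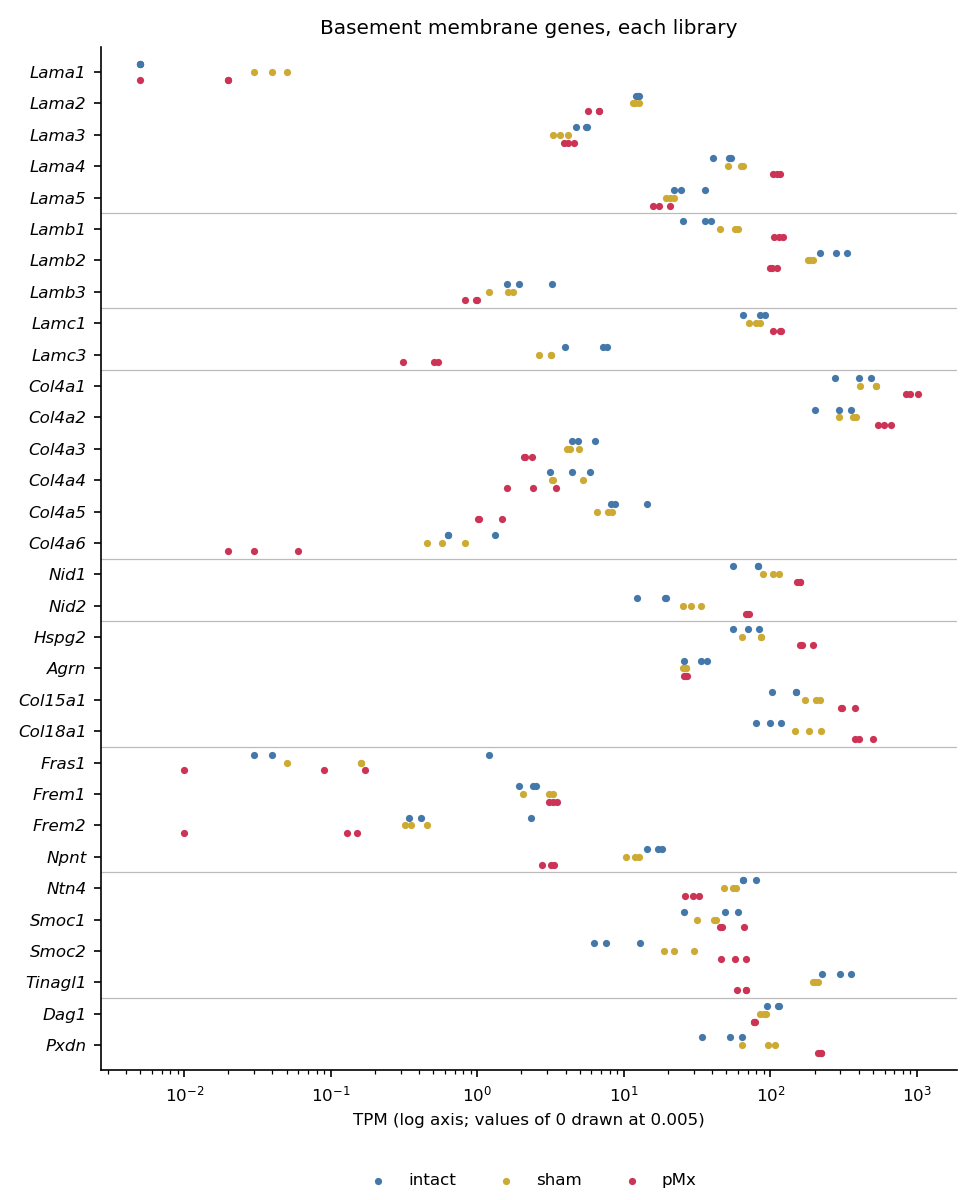
TPM of the 32 basement membrane genes in each of the 9 libraries on a log axis, by role and colored by group. Col4a1 was the most abundant in every group, at a mean of 386 in intact, 487 in sham and 919 in pMx, and Lama1 stayed at or below 0.05.

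The set took up more of the pMx libraries. Its summed level was 2204 ± 470 TPM in intact, 2401 ± 252 in sham and 3682 ± 277 in pMx (SD, n = 3 each). Intact replicate 3 was at 1691 TPM and the other intact libraries were at 2307 and 2613 TPM, within or above the sham range of 2117 to 2594 TPM. The highest intact library reached 2613 TPM and the lowest pMx library 3414 TPM, so the pMx group lay above both of the others. The order of levels changed too. In intact synovium Col4a1 was followed by Tinagl1 (292 TPM), Col4a2 (284 TPM) and Lamb2 (278 TPM), which overlapped over the libraries. In pMx the genes after Col4a1 were Col4a2 (599 TPM), Col18a1 (426 TPM) and Col15a1 (329 TPM).

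Among the laminin alpha chains, Lama4 rose and Lama2 fell. Lama4, the chain of vessel and adipocyte laminins, measured 62.78, 64.77 and 51.03 TPM in sham and 103.87, 116.83 and 110.27 TPM in pMx. All pMx libraries were above all sham libraries (log2 fold change 0.89, SE 0.13, adjusted p = 0.000886). Lama2, the alpha chain of muscle and Schwann cell laminins, measured 11.82, 12.69 and 11.47 TPM in sham and 6.80, 6.76 and 5.67 TPM in pMx. The groups did not overlap and the log2 fold change was -0.81 (SE 0.09, adjusted p = 0.000236). In intact synovium Lama2 was at 12.64, 12.09 and 12.43 TPM, a narrow range that the sham libraries overlapped.

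The other alpha chains did not pass the test between pMx and sham. Lama5, widespread in adult basement membranes, was at 20.72, 21.80 and 19.52 TPM in sham and 15.77, 17.46 and 20.79 TPM in pMx, with overlapping groups (log2 fold change -0.20, adjusted p = 0.412). Lama3, a chain of epithelial laminin, was between 3.28 and 5.60 TPM in all 9 libraries. Lama1, an early embryonic chain, was listed at 0 in the intact libraries and at 0.05 TPM or less elsewhere. Epithelial markers were also near 0: the 6 that were in the table summed to between 3.23 and 6.39 TPM.

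Within each library, the share of alpha chain TPM from Lama4 was 52.1% ± 2.47 in intact, 61.9% ± 1.90 in sham and 79.4% ± 1.02 in pMx (SD, n = 3). The share of Lama2 was 13.4% in intact, 12.5% in sham and 4.62% in pMx, and that of Lama5 was 28.8%, 21.6% and 12.9%. These shares are ratios inside a library and do not depend on its scaling. They are given as a description, without a test.

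The 2 main beta chains moved in opposite directions and reached similar levels in pMx. Lamb1, the beta chain of many developing and adult laminins, measured 35.65, 39.00 and 25.39 TPM in intact, 57.47, 60.29 and 45.16 TPM in sham and 106.25, 122.06 and 115.17 TPM in pMx. No library of a lower group reached the next group. The log2 fold change was 1.07 (SE 0.16, adjusted p = 0.00124) for pMx versus sham. Lamb2, the beta chain of neuromuscular, glomerular and arterial laminins, measured 281.63, 333.61 and 218.47 TPM in intact, 195.70, 181.00 and 186.22 TPM in sham and 102.56, 109.97 and 99.30 TPM in pMx. Its groups were separate in the opposite order, with a log2 fold change of -0.85 (SE 0.13, adjusted p = 0.00146) for pMx versus sham.

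The Lamb1 share of beta chain TPM was 10.3% to 11.1% in the intact libraries, 19.4% to 24.9% in the sham libraries and 50.7% to 53.5% in the pMx libraries. Intact replicate 3 did not stand apart in this share. The ratio of Lamb1 to Lamb2 was 0.120 ± 0.006 in intact, 0.290 ± 0.045 in sham and 1.10 ± 0.062 in pMx (SD, n = 3). Lamb3, the beta chain of epithelial laminin, was low and its pMx values of 0.83, 0.98 and 1.00 TPM were under the sham values of 1.75, 1.21 and 1.61 TPM, but the difference did not pass (log2 fold change -0.38, adjusted p = 0.126).

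The gamma chains also diverged. Lamc1, the gamma chain of most laminins, measured 80.22, 84.24 and 70.92 TPM in sham and 103.80, 115.73 and 118.71 TPM in pMx (log2 fold change 0.52, SE 0.13, adjusted p = 0.0137). The groups did not overlap, but without sham replicate 3 the adjusted p was 0.0542. Lamc3, a gamma chain of restricted expression, measured 7.65, 7.23 and 3.96 TPM in intact, 3.16, 3.17 and 2.62 TPM in sham and 0.51, 0.54 and 0.31 TPM in pMx. Each group lay below the one before it. The mean TPM in pMx was 0.152 times that in sham (log2 fold change -1.46, SE 0.20, adjusted p = 0.000778). Lamc3 made up 7.09% of gamma chain TPM in intact, 3.66% in sham and 0.405% in pMx.

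**Figure D2:**
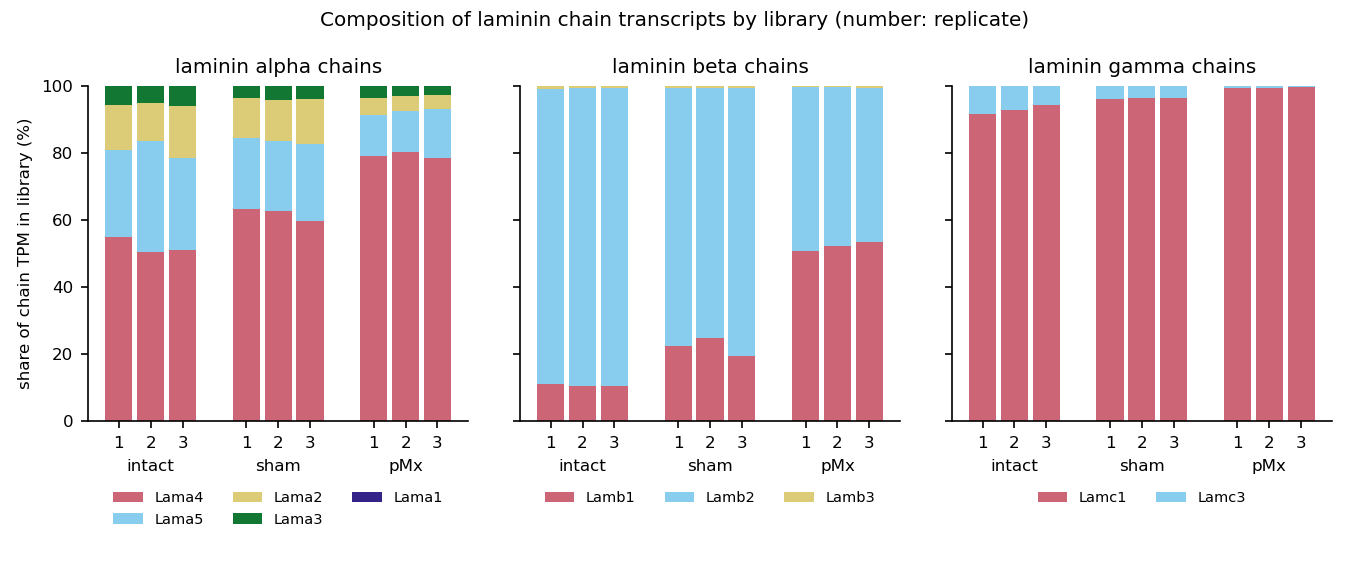
Stacked bars give, for each library, the percent of laminin alpha, beta and gamma chain TPM from each gene. The Lamb1 share reached 50.7% to 53.5% in the pMx libraries and was 24.9% or less in the others, and the Lama4 share reached 78.4% to 80.4% in pMx and was 63.4% or less in the others.

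From sham to pMx the summed beta chain level was lower on average, while the alpha sum (95.9 to 139 TPM) and the gamma sum were higher. From intact to sham the beta and gamma averages were both lower in sham. Beta chains summed to 313 ± 64.8 TPM in intact, 243 ± 11.0 in sham and 219 ± 12.2 in pMx, while gamma chains summed to 87.0 ± 16.1, 81.4 ± 7.13 and 113 ± 7.82 TPM (SD, n = 3). The ratio of beta to gamma TPM was 3.59 in intact, 3.00 in sham and 1.94 in pMx, and that of alpha to gamma TPM was 1.09, 1.18 and 1.23.

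Collagen IV chains split by gene pair. In the genome the 6 genes lie in 3 pairs that start next to each other and are read in opposite directions: Col4a1 with Col4a2, Col4a3 with Col4a4, and Col4a5 with Col4a6. Transcript starts are 77 bases apart for Col4a1 and Col4a2, 413 for Col4a3 and Col4a4 and 1415 for Col4a5 and Col4a6 in RefSeq for GRCr8. The promoter windows of the abundant pair that rose and of the pair that fell most are printed here because both genes of each pair moved the same way. Each is 250 bases before to 50 after the start, 5′ to 3′ in the gene's direction, and capitals mark the 176 bases that the Col4a1 and Col4a2 windows share on opposite strands. The Col4a5 and Col4a6 windows share none and lie 914 bases apart. The windows are chr16:84885347-84885646 on the plus strand for Col4a1, chr16:84885471-84885770 on the minus strand for Col4a2, chrX:109907109-109907408 on the plus strand for Col4a5 and chrX:109905895-109906194 on the minus strand for Col4a6.
Col4a1: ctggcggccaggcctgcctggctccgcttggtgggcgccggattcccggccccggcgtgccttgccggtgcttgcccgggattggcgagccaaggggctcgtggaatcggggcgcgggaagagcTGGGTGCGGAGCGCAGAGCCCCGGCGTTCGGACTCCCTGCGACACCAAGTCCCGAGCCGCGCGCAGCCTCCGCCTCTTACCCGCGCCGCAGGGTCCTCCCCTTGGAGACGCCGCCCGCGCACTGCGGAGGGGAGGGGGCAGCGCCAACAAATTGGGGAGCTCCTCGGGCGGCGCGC
Col4a2: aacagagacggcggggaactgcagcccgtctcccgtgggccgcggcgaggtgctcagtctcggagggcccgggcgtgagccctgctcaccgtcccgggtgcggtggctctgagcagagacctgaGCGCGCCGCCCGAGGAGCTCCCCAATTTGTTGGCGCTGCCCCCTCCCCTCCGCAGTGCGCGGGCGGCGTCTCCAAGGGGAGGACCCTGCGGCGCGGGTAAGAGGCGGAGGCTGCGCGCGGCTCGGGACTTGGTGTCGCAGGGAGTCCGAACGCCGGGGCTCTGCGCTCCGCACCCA
Col4a5: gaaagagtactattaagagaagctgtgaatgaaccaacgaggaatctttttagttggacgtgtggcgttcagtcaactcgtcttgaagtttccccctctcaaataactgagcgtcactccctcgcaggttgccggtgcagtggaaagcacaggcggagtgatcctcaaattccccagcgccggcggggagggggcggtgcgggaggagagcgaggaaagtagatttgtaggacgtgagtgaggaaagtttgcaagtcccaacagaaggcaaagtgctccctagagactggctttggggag
Col4a6: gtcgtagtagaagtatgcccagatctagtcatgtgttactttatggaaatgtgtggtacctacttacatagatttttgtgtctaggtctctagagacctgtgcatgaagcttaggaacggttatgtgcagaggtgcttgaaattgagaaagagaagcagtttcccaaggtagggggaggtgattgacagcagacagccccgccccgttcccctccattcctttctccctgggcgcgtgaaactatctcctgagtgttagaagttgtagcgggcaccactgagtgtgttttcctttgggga

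The windows differ in base composition. G and C made up 75.0% of the Col4a1 window, 73.7% of the Col4a2 window, 62.0% of the Col4a3 window and 65.3% of the Col4a4 window. The share was 53.3% for Col4a5 and 48.3% for Col4a6, beside a median of 51.7% over the 33469 windows of the RefSeq table. The letters CCAAT, searched on both strands, occurred 2 times in the Col4a1 window and 1 time in the Col4a2 window and not in the other collagen IV windows, and 37.5% of all windows held them. The GC box letters GGGCGG occurred 2 times in each of the Col4a1 and Col4a2 windows and 1 time in each of the Col4a3, Col4a5 and Col4a6 windows, and 33.1% of all windows held them. The 2 GC box matches of Col4a1 and those of Col4a2 are the same letters, since they lie in the bases that both windows share. The Col4a2 CCAAT match is likewise 1 of the Col4a1 matches, so these counts are not independent between the 2 genes. None of the 6 windows held TATAAA, which 14.2% of all windows held. A match is a run of letters and is not shown to be a binding site. Windows were in the table for 28 of the 32 genes.

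Col4a1 and Col4a2, which form the collagen IV of nearly all basement membranes, rose together. Col4a1 measured 526.83, 527.76 and 405.23 TPM in sham and 839.11, 899.79 and 1017.18 TPM in pMx (log2 fold change 0.92, SE 0.20, adjusted p = 0.00688). Col4a2 measured 367.95, 380.94 and 294.90 TPM in sham and 540.00, 593.52 and 663.78 TPM in pMx (log2 fold change 0.79, SE 0.20, adjusted p = 0.0141). Neither gene had overlapping groups. The Col4a2 call was lost without sham replicate 3 (adjusted p = 0.0555) and without pMx replicate 3 (adjusted p = 0.0501). The ratio of Col4a1 to Col4a2 kept within 1.35 to 1.37 in intact, 1.37 to 1.43 in sham and 1.52 to 1.55 in pMx, so Col4a1 gained slightly more.

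Col4a5 and Col4a6, the pair on the X chromosome, fell. Col4a5 measured 8.66, 14.41 and 8.21 TPM in intact, 6.60, 7.77 and 8.32 TPM in sham and 1.01, 1.48 and 1.02 TPM in pMx. All pMx values were far below the rest, which overlapped, and the mean was 0.155 times that in sham (log2 fold change -1.98, SE 0.20, adjusted p = 0.000174). Col4a6 measured 0.57, 0.45 and 0.83 TPM in sham and 0.02, 0.03 and 0.06 TPM in pMx. Its mean was 0.0595 times that in sham, but because its level is under 1 TPM the log2 fold change was only -0.63 (SE 0.14, adjusted p = 0.00868), and it was -2.37 with a pseudocount of 0.1.

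Col4a3 fell and Col4a4 did not pass. Both belong to the collagen IV of specialized membranes such as that of the kidney glomerulus. Col4a3 measured 4.27, 4.09 and 4.91 TPM in sham and 2.36, 2.07 and 2.11 TPM in pMx (log2 fold change -0.77, SE 0.13, adjusted p = 0.00222). Col4a4 measured 3.25, 3.30 and 5.24 TPM in sham and 3.42, 1.59 and 2.41 TPM in pMx, with overlapping groups (log2 fold change -0.52, SE 0.26, adjusted p = 0.156). Summed over the 6 chains, collagen IV was at 692 ± 186 TPM in intact, 851 ± 114 in sham and 1524 ± 152 in pMx (SD, n = 3). The 4 rarer chains together made 21.0, 16.5 and 5.86 TPM of that on average.

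**Figure D3:**
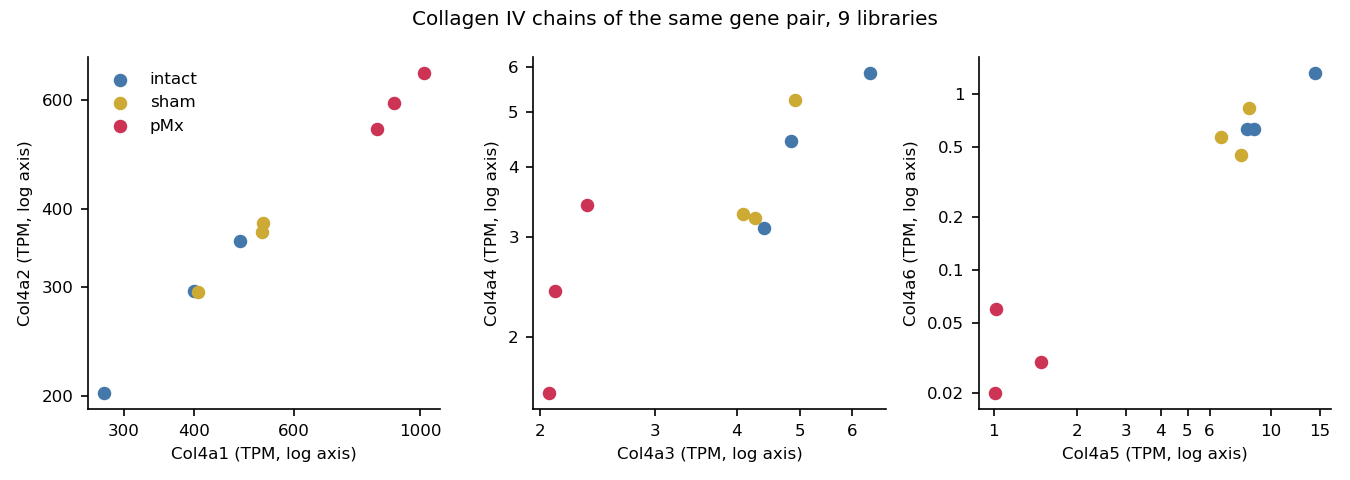
Each point is a library, with the TPM of a collagen IV gene against that of its neighbor on log axes. The pMx libraries lie at the top right for Col4a1 and Col4a2 (839 to 1017 TPM of Col4a1) and at the bottom left for Col4a5 and Col4a6 (1.01 to 1.48 TPM of Col4a5), and for Col4a3 and Col4a4 they are apart along Col4a3 but overlap the rest along Col4a4.

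The linkers of the laminin and collagen IV networks rose. Nid2 measured 19.09, 19.38 and 12.37 TPM in intact, 28.75, 33.49 and 25.28 TPM in sham and 69.03, 71.18 and 68.61 TPM in pMx. The groups were separate, and the log2 fold change was 1.24 (SE 0.16, adjusted p = 0.000632) for pMx versus sham. Nid1, the more abundant nidogen, measured 103.54, 114.55 and 88.28 TPM in sham and 151.93, 158.65 and 159.00 TPM in pMx (log2 fold change 0.62, SE 0.16, adjusted p = 0.0148). Its groups did not overlap either, but without sham replicate 3 the adjusted p was 0.0571. The ratio of Nid1 to Nid2 was 4.34 ± 0.11 in intact, 3.50 ± 0.09 in sham and 2.25 ± 0.06 in pMx (SD, n = 3).

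Of the proteoglycans and multiplexins, 3 of 4 rose. Hspg2, which encodes perlecan, a heparan sulfate proteoglycan, measured 86.29, 85.71 and 64.09 TPM in sham and 163.82, 195.37 and 159.37 TPM in pMx (log2 fold change 1.13, SE 0.17, adjusted p = 0.00107). Agrn, which encodes agrin, another heparan sulfate proteoglycan, had sham values of 25.32, 26.38 and 26.61 TPM and pMx values of 25.52, 26.79 and 26.11 TPM. These ranges nearly coincided (log2 fold change 0.00, SE 0.12, adjusted p = 0.994).

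Col18a1, the collagen that carries endostatin at its end, measured 98.78, 118.06 and 79.21 TPM in intact, 182.58, 220.52 and 147.30 TPM in sham and 374.91, 402.91 and 501.41 TPM in pMx. The groups were separate, with a log2 fold change of 1.22 (SE 0.19, adjusted p = 0.00130) for pMx versus sham. Col15a1, its relative, measured 203.54, 217.05 and 171.91 TPM in sham and 300.64, 305.78 and 379.12 TPM in pMx (log2 fold change 0.73, SE 0.16, adjusted p = 0.00865). Col15a1 was above Col18a1 in each intact library and below it in each pMx library, and the ratio of Col18a1 to Col15a1 went from 0.740 ± 0.069 in intact through 0.923 ± 0.083 in sham to 1.30 ± 0.042 in pMx (SD, n = 3).

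Pxdn, the peroxidase that cross-links collagen IV, rose. It measured 63.50, 52.97 and 34.15 TPM in intact, 95.75, 108.01 and 63.60 TPM in sham and 210.62, 222.46 and 220.44 TPM in pMx. The pMx values lay close together above all others, with a log2 fold change of 1.31 (SE 0.24, adjusted p = 0.00327) over sham, the largest increase in the set for that comparison. Dag1, which encodes dystroglycan, a laminin receptor, was at 90.82, 92.99 and 85.04 TPM in sham and 77.14, 77.82 and 78.86 TPM in pMx. The groups did not overlap, but the difference was small and did not pass (log2 fold change -0.20, SE 0.08, adjusted p = 0.0776). It passed without intact replicate 3 (adjusted p = 0.00673).

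Smoc2 and Tinagl1, which encode matricellular proteins, moved in opposite directions. Smoc2 measured 12.95, 7.56 and 6.25 TPM in intact, 21.98, 29.95 and 18.72 TPM in sham and 67.99, 57.55 and 46.31 TPM in pMx. Each group was above the one before it, with a log2 fold change of 1.26 (SE 0.26, adjusted p = 0.00627) for pMx versus sham. Its relative Smoc1 had values of 42.54, 41.17 and 31.69 TPM in sham and 46.76, 45.09 and 65.68 TPM in pMx and did not pass (log2 fold change 0.43, SE 0.29, adjusted p = 0.290).

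Tinagl1, which binds integrins and is found in vessel walls, measured 296.63, 352.19 and 225.70 TPM in intact, 196.59, 202.24 and 209.56 TPM in sham and 58.92, 68.42 and 67.67 TPM in pMx. It was among the most abundant of the set in intact synovium and no pMx library came near the sham level. The mean was 0.321 times that in sham (log2 fold change -1.63, SE 0.14, adjusted p = 9.15e-05). Ntn4, a netrin that binds laminin gamma chains and hinders laminin assembly, measured 55.16, 48.42 and 58.18 TPM in sham and 29.67, 32.30 and 25.92 TPM in pMx, without overlap (log2 fold change -0.86, SE 0.11, adjusted p = 0.000576).

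Npnt, which encodes nephronectin, a ligand of the integrin with the Itga8 chain, measured 16.99, 18.33 and 14.35 TPM in intact, 10.30, 11.93 and 12.62 TPM in sham and 2.75, 3.18 and 3.34 TPM in pMx. Each group lay below the one before it. The mean in pMx was 0.266 times that in sham (log2 fold change -1.62, SE 0.12, adjusted p = 4.40e-05), the lowest adjusted p of the set in that comparison. The Fraser complex, which anchors epithelia, was barely present. Frem1 was between 1.91 and 3.49 TPM, and Fras1 and Frem2 were under 0.5 TPM in all libraries but intact replicate 3, where they were at 1.20 and 2.32 TPM. None of these 3 genes passed between pMx and sham, and Frem2 passed without intact replicate 3 (log2 fold change -0.33, adjusted p = 0.00714).

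**Figure D4:**
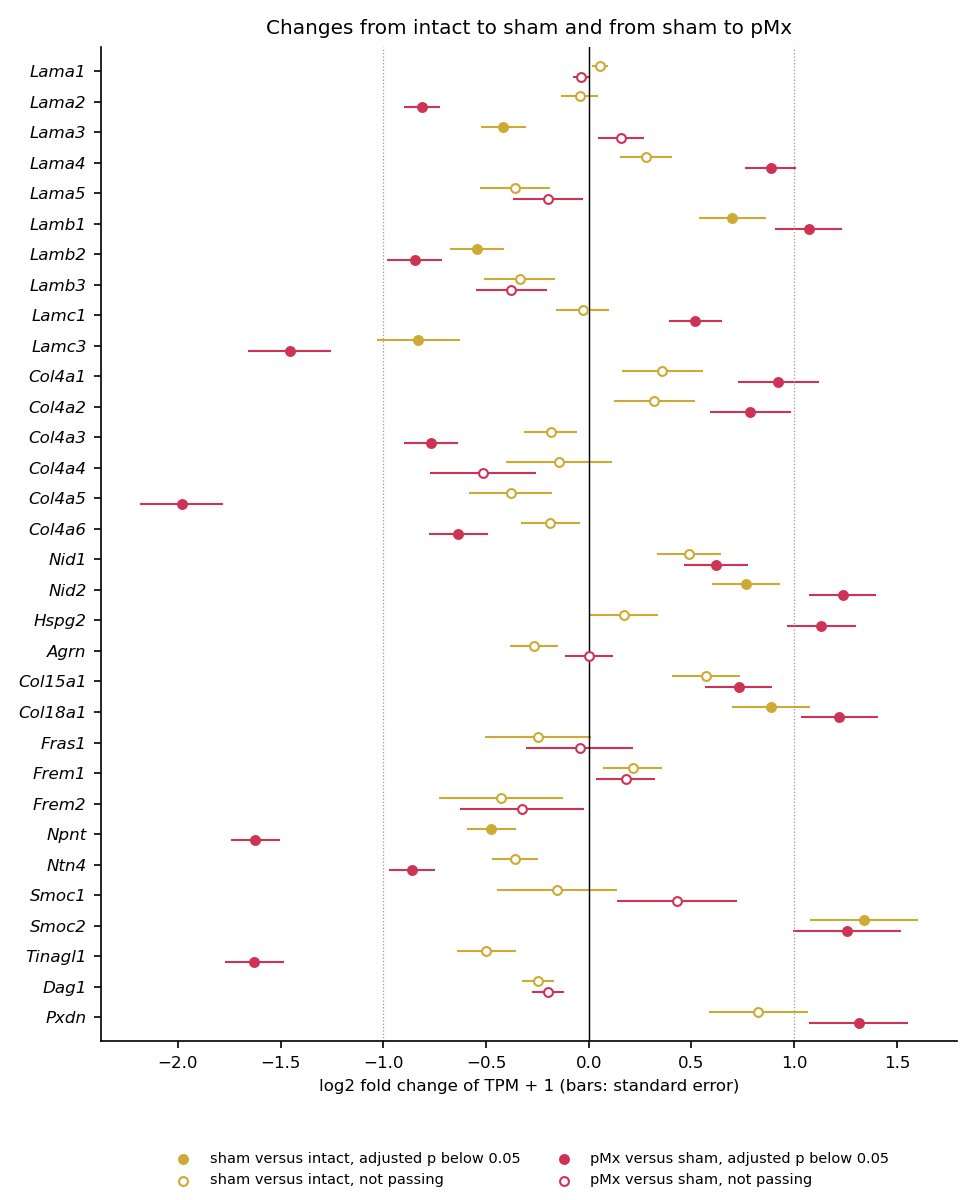
Log2 fold changes of TPM + 1 with standard errors for the 32 genes, from intact to sham and from sham to pMx, filled where the adjusted p was below 0.05. In pMx versus sham the values run from -1.98 for Col4a5 to 1.31 for Pxdn, and in sham versus intact from -0.83 for Lamc3 to 1.34 for Smoc2; both comparisons use the sham libraries.

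Sham surgery alone was examined in sham versus intact. Here 4 genes were higher, Smoc2 (log2 fold change 1.34, adjusted p = 0.0173), Col18a1 (0.89, adjusted p = 0.0214), Nid2 (0.77, adjusted p = 0.0226) and Lamb1 (0.70, adjusted p = 0.0293). A further 4 were lower, Lamc3 (-0.83, adjusted p = 0.0336), Lamb2 (-0.54, adjusted p = 0.0342), Npnt (-0.47, adjusted p = 0.0369) and Lama3 (-0.42, adjusted p = 0.0440). Smoc2 was the only DEG. Among all genes tested, 6.73% were called higher, 5.97% lower and 1.96% DEGs. These calls were close to the threshold, and none of the 8 held under every alternative setting. In a fit on the 6 libraries of the comparison no gene of the set passed, although 7 were higher and 7 lower at an unadjusted p below 0.05. Over all genes, that fit called 406 higher and 281 lower, against 1112 and 985 in the main fit. No gene of the set passed without sham replicate 1 or without sham replicate 2. Over all genes, 430 were higher and 310 lower without sham replicate 1, and 388 and 252 without sham replicate 2. The 4 lower calls became 0 or 1 when any library other than intact replicate 3 was left out. Without intact replicate 3, 4 were higher and 7 lower, among them Agrn (log2 fold change -0.42, adjusted p = 0.00521), Tinagl1 (-0.67, adjusted p = 0.00482) and Dag1 (-0.33, adjusted p = 0.00555). The lower calls over all genes also grew without that library, from 985 to 1934, and the higher calls went from 1112 to 1037. Collagen IV chains did not pass in this comparison, with log2 fold changes from -0.38 for Col4a5 to 0.36 for Col4a1.

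Between pMx and intact, 13 genes were higher, 12 lower and 7 did not pass, and 17 were DEGs, 11 up and 6 down. Of all genes tested, 23.4% were called higher, 27.1% lower and 14.3% DEGs. With a pseudocount of 0.1 instead of 1, 21 genes of the set were DEGs. The added DEGs were all lower: Lamb3 (log2 fold change -1.12), Col4a3 (-1.21), Col4a6 (-2.74) and Frem2 (-2.14). Over all genes, the DEGs went from 2360 to 3531 with that pseudocount. The comparison shares its libraries with the other comparisons and is not independent of them. Smoc2 (log2 fold change 2.60), Pxdn (2.14), Col18a1 (2.11), Nid2 (2.00) and Lamb1 (1.77) had the largest increases. Col4a5 (-2.36), Lamc3 (-2.29), Tinagl1 (-2.13), Npnt (-2.10), Lamb2 (-1.39) and Ntn4 (-1.22) were the DEGs that fell. Lamb3 (-0.71, adjusted p = 0.00841), Lama5 (-0.56, adjusted p = 0.0245) and Dag1 (-0.44, adjusted p = 0.00151) also fell, the Lama5 call being lost without pMx replicate 1 (adjusted p = 0.0848) or pMx replicate 2 (adjusted p = 0.0670). Frem1 was higher (0.39, adjusted p = 0.0472), a call that held in 2 of the 9 fits with a library left out. Without intact replicate 3, 12 were higher and 16 lower. Over all genes, the lower calls went from 4482 to 5190 without that library and the higher calls from 3868 to 3723.

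Receptors of the basement membrane were mostly lower in pMx than in sham. Of 18 listed receptors and their associated proteins, 12 fell, 1 rose and 5 did not pass. Bcam, which encodes a laminin receptor for Lama5 laminins, went from 195 ± 16.4 TPM in sham to 53.1 ± 8.01 in pMx (log2 fold change -1.86, adjusted p = 6.96e-05). Itga8, the integrin chain that pairs with Itgb1 to bind nephronectin, went from 14.5 ± 1.94 to 4.14 ± 0.25 TPM (log2 fold change -1.59, adjusted p = 0.000222), and thus fell along with its ligand gene Npnt. Itgb1, the beta chain shared by most matrix integrins, was the 1 that rose, from 373 ± 21.9 to 577 ± 11.1 TPM (log2 fold change 0.63, adjusted p = 0.00165; SD, n = 3 throughout this list).

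Genes for enzymes and chaperones that build collagen rose, as Col4a1 and Col4a2 did. Of 14 genes tested for collagen IV folding and secretion, 13 rose and 1 fell between sham and pMx. These proteins serve other collagens as well, and Col1a1 went from 4501 to 15669 TPM on average in the same libraries. P4ha3, a subunit of prolyl 4-hydroxylase, went from 28.2 ± 6.27 to 156 ± 5.23 TPM (log2 fold change 2.45, adjusted p = 2.76e-05). P3h1, a prolyl 3-hydroxylase, went from 46.2 ± 7.22 to 145 ± 6.17 TPM (log2 fold change 1.64, adjusted p = 5.14e-05). P3h2, a prolyl 3-hydroxylase known to act on collagen IV, was the 1 that fell, from 5.16 ± 0.49 to 1.86 ± 0.12 TPM (log2 fold change -1.11, adjusted p = 0.000212).

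Genes for the laminin-binding sugar of dystroglycan changed less. Of 11 tested, 4 rose, 1 fell and 6 did not pass.

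Other basement membrane proteins were divided, with 6 of 13 higher and 6 lower. Tgfbi, a matrix protein that binds collagens, rose (log2 fold change 1.67, adjusted p = 0.000151), and so did Matn2, a matrilin (1.45, adjusted p = 0.000197). Ntn1, the netrin best known from axon guidance, went from 94.8 ± 20.3 to 8.58 ± 0.58 TPM (log2 fold change -3.30, adjusted p = 1.04e-05), and Papln, a papilin, from 7.63 ± 0.16 to 2.00 ± 0.19 TPM (log2 fold change -1.53, adjusted p = 7.21e-05). Of 15 proteases that can act on basement membranes, 7 rose and 4 fell. Adamts4 (log2 fold change 2.18, adjusted p = 0.000195) and Mmp3 (1.68, adjusted p = 0.00179) had the largest increases among DEGs, and Ctsl, a lysosomal cathepsin, was the only DEG that was lower (-1.09, adjusted p = 0.000194).

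Marker lists of the cell types that such tissue can hold were read in the same libraries. In pMx versus sham, 8 of 8 adipocyte markers and 9 of 9 Schwann cell and nerve markers fell. The summed level of the adipocyte list was 5777 to 6784 TPM in sham and 404 to 667 TPM in pMx, and that of the Schwann cell and nerve list was 651 to 794 TPM in sham and 293 to 309 TPM in pMx. Of 10 pericyte and smooth muscle markers, 4 fell and none rose, with summed levels of 3950 to 4502 TPM in sham and 2442 to 2689 TPM in pMx. Myh11, the smooth muscle myosin, went from 246 to 33.4 TPM (log2 fold change -2.85, adjusted p = 5.20e-05). The largest drops in average TPM were in contractile genes: Acta2 (1455 to 564 TPM), Tagln (1246 to 808 TPM) and Myh11. Rgs5 averaged 616 and 653 TPM, Cspg4 32.9 and 42.2 TPM, and Mcam 138 and 159 TPM in sham and pMx. Des averaged 195 and 206 TPM, Notch3 87.0 and 78.5 TPM, Kcnj8 34.7 and 24.9 TPM, and Cnn1 84.3 and 16.3 TPM. Of 6 synovial lining markers, 5 fell, and the list summed to 2203 to 3018 TPM in sham and 1292 to 2036 TPM in pMx, although Prg4, which encodes lubricin, was at 1315 and 1453 TPM on average and did not pass.

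No endothelial marker was called higher in pMx. Of 10, 4 fell and none rose, and the list summed to 941 to 1015 TPM in sham and 751 to 953 TPM in pMx. Pecam1 averaged 184 and 164 TPM and Cdh5 113 and 142 TPM in sham and pMx, and neither passed (adjusted p = 0.379 and 0.108). Fibroblast markers summed to 18617 to 20935 TPM in sham and 36025 to 39497 TPM in pMx, with 4 of 8 higher and 3 lower. Most of the pMx sum came from the collagen genes Col1a1 (4501 to 15669 TPM on average) and Col3a1 (9107 to 17807 TPM). Thy1 (326 to 1037 TPM) and Pdgfrb (108 to 194 TPM) also went up on average. Dcn (4683 to 2441 TPM), Dpt (976 to 374 TPM) and Pi16 (124 to 33.5 TPM) went down. Macrophage markers had 1 of 8 higher and 3 lower, with sums of 1976 to 2025 TPM in sham and 1245 to 1763 TPM in pMx. Most of that sum came from C1qa, C1qb and C1qc, at 659, 454 and 425 TPM on average in sham and 522, 291 and 259 TPM in pMx. Cd68 averaged 150 TPM in sham and 209 TPM in pMx, and Cd163 27.2 and 5.05 TPM. No skeletal muscle marker of 10 passed, the lowest adjusted p being 0.853 for Myh2. The part of these cell types in the changes of the basement membrane genes was not tested, and in bulk tissue fewer cells of a type and less RNA per cell cannot be told apart.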

How the data were processed

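Messenger RNA of 3 libraries per group, isolated on oligo-dT beads, was sequenced by BGI. The authors deposited TPM values, calculated in the BGI system Dr. Tom and rounded to 2 decimals. The submitters' processing notes name HISAT2 2.0.4 and the build mRatBN7.2, with no counting tool. Because TPM has a fixed total, a large rise of a few genes lowers the others, and depth is unknown. All columns were assigned to groups by the sample titles.

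From the deposited TPM, log2(TPM + 1) was fitted for 16512 genes above 0 in at least 3 of 9 libraries with limma 3.58.1 in R 4.3.3 (a mean per group, eBayes with trend, Benjamini-Hochberg adjustment), after a test on simulated data. An adjusted p below 0.05 was called, and a DEG also had an absolute log2 fold change above 1. Sums and shares had no test. Promoters came from RefSeq for GRCr8, another build than that of the values. Figures were drawn with Matplotlib 3.10.9.

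The 32 genes and the lists were chosen with earlier results of these data known. All 32 genes were named, and of each pathway list the 2 DEGs with the largest increase and decrease in pMx versus sham. Some genes that this rule covers are not reported here. Itgb1 and Col1a1 were chosen after their values were seen. Crtap and Krt5, also listed, were not matched. The alternatives left out each library in turn, used only the 6 libraries compared, added a replicate block, dropped the trend, normalized by quantiles or by median of ratios, dropped the filter or required a mean of 1 TPM, or set the pseudocount to 0.1 or 0.01.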

Additional observations from a re-analysis of the deposited data

How the results depend on the processing

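Of the calls for single genes, 18 of 21 in pMx versus sham, 23 of 25 in pMx versus intact and none of 8 in sham versus intact held under all alternatives. Lamc1, Nid1 and Col4a2 were the exceptions in pMx versus sham, and Lama5 and Frem1 in pMx versus intact. Leaving out a library gave 9 to 12 genes higher and 9 to 11 lower in pMx versus sham, and 12 to 13 higher and 11 to 16 lower in pMx versus intact. In sham versus intact, 4 higher, 4 lower and 1 DEG became 0 to 5, 0 to 7 and 0 to 3 (none without sham replicate 1 or sham replicate 2, where 7 and 6 were higher and 7 and 7 lower at an unadjusted p below 0.05 in limma). There, 2 were lower with a pseudocount of 0.1 or 0.01, 7 were higher after median-of-ratios rescaling or quantile normalization, and 0 were higher, 0 lower and 0 DEGs in the fit on 6 libraries. Higher calls over all genes moved too, from 1112 to 1660 after median-of-ratios rescaling, 1490 after quantile normalization and 406 in the fit on 6 libraries. The cause was not tested.

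Values that changed sign belonged to genes that did not pass in that comparison. After quantile normalization these were Lama1 (0.0107) and Fras1 (0.0272) in pMx versus sham and Lama2 (0.00141) in sham versus intact. With a library left out they ranged from -0.0190 to 0.0185 for Agrn and -0.10 to 0.00921 for Fras1 in pMx versus sham; from -0.18 to 0.0717 for Lamc1, -0.33 to 0.0364 for Col4a4, -0.43 to 0.12 for Fras1 and -0.50 to 0.0910 for Smoc1 in sham versus intact; and from -0.48 to 0.0721 for Fras1 and -0.0737 to 0.52 for Smoc1 in pMx versus intact.

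In pMx versus sham, the DEGs of the set went from 10 to 11 with a pseudocount of 0.1 and to 12 with 0.01. The added DEGs, Col4a6 and Col4a3, were lower. Over all genes, a pseudocount of 0.1 raised the DEGs from 1355 to 2229 in pMx versus sham and from 323 to 612 in sham versus intact, and a pseudocount of 0.01 raised those of pMx versus intact from 2360 to 3662. Whether the replicate numbers pair the samples is not known. Correlations of same-numbered libraries' deviations ran from -0.664 to 0.485, and not every library correlated best with its own number. In pMx versus sham, replicates 2 and 3 did so (0.368 and 0.485) and replicate 1 did not. These correlations cannot decide on pairing, because each deviation is from a mean of 3 libraries that also differed in muscle markers. With the replicate block, 1343, 297 and 2350 genes were DEGs in pMx versus sham, sham versus intact and pMx versus intact, and 5 genes of the set were higher and 3 lower in sham versus intact. TPM has no read numbers, so what depth limits could not be measured, and genes under 1 TPM such as Lama1, Col4a6 and Fras1 are the least certain.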
